A study of Ovis aries with 10 samples.

Results

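The subject here is miR-21, read by the probe oar-miR-21. It is 1 of 207 probes on a custom ovine array, of which 55 are controls and the rest miRNA probes, and it was picked out by its name. The study lists miR-21 among the miRNAs that changed in these same samples, and earlier results of these data were known, so its direction here is not independent evidence. The study also reports a significant rise of miR-21 by quantitative PCR, which was not examined here. Total RNA from whole frozen lung of 5 female merino sheep, 9 months old in the labels, was hybridised at week 4 with 1 dye, a caudal segment to each array. Every animal gave a pair of arrays. By the methods 1 segment of each animal received bleomycin, a cytotoxic drug that injures the lung and leaves scar tissue. The other received saline, so each animal was its own control. The labels give histology and not the infusion. The segment labelled Fibrosis is taken here as the bleomycin-infused one and that labelled Normal as the saline-infused one. By the methods these animals were picked from a larger group for the most severe fibrosis, and they do not stand for all bleomycin-treated sheep. The labels place the fibrotic segment on the left in sheep 2 and 3 and on the right in sheep 6, 7 and 10, whereas the methods place bleomycin on the left in each animal. Groups follow the labels, and the change, share and rank of miR-21 are also given under the other coding.

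A miRNA is a short RNA that guides a silencing complex to matching sites in messenger RNAs and lowers their translation or stability. miR-21 is among the most widely studied miRNAs of fibrosis. It is raised by TGF-β signalling in fibroblasts, and a known target is SMAD7, an inhibitor of that signalling. Epithelial cells, fibroblasts and leukocytes all make miR-21, so in bulk tissue a change in the number of such cells and a change in the miRNA content per cell cannot be told apart. In the annotation of the sheep assembly ARS-UI_Ramb_v3.0 the gene MIR21 lies inside the interval of VMP1, which codes for a membrane protein of autophagy. The neighbouring protein-coding genes are PTRH2 and TUBD1. The array names no genome build.

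The deposited intensities are linear and background corrected, and the summed intensity of all miRNA probes was nearly alike on every array, between 138979 and 146225. No step that would make these sums alike is described in the sources used here. Before the log2 step values below 1 were raised to 1, and arrays were not scaled to each other. How precisely miR-21 could be compared was limited by there being 5 pairs of arrays. The labelled tissue was checked only through miRNAs of cell types, among which the epithelial miR-200 family was detected in every segment.

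miR-21 was brighter in the fibrotic segment of each of the 5 sheep than in the normal segment of that animal. Sheep 2 went from an intensity of 5965 (normal) to 17762 (fibrotic). Sheep 3 went from 4483 to 7221, and sheep 6 from 15847 to 16698. Sheep 7 went from 5961 to 11895, and sheep 10 from 12243 to 15139. The normal segments were low in sheep 2, 3 and 7 and high in sheep 6 and 10. The groups overlapped, since the fibrotic value of sheep 3 was below the normal values of sheep 6 and 10. As a fold of fibrotic over normal, sheep 2 had 2.98, sheep 7 had 2.00, sheep 3 had 1.61, sheep 10 had 1.24 and sheep 6 had 1.05.

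**Figure D1:**
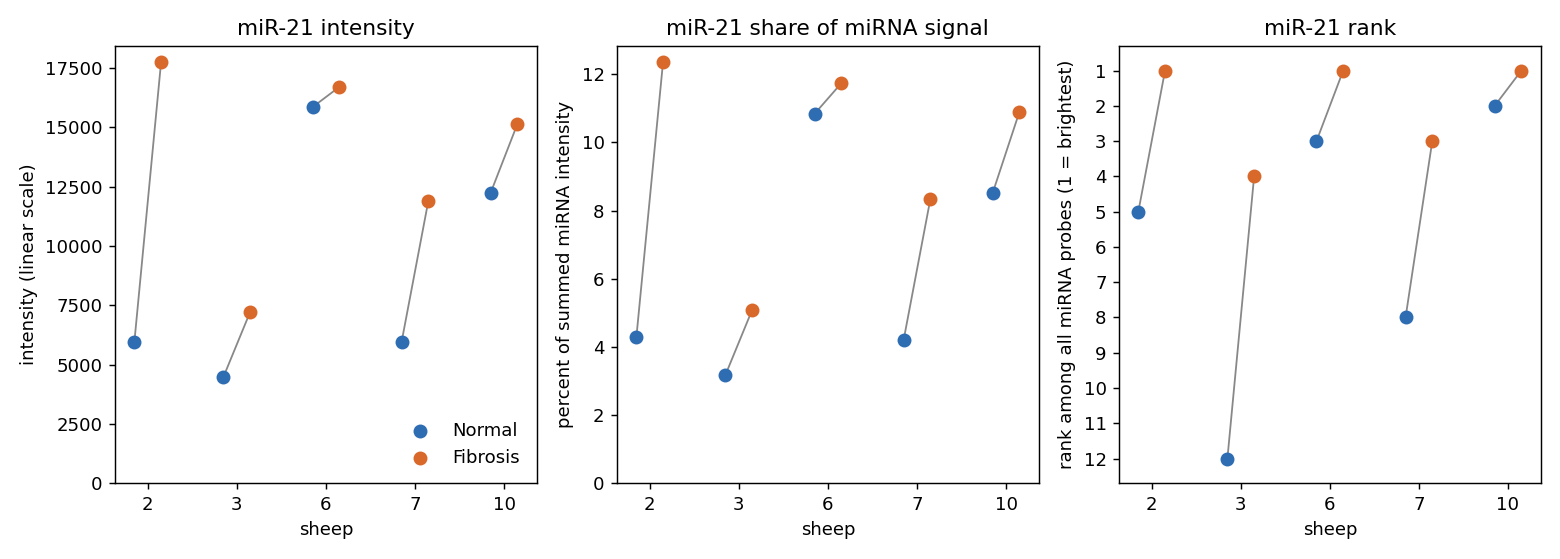
Intensity, share of the summed miRNA intensity in percent and rank of miR-21 in the normal (blue) and fibrotic (orange) segment of each sheep, with a grey line joining both segments of an animal; each point is 1 array and there are no error bars. All 5 lines run towards a higher intensity and share and a rank nearer 1, and sheep 6 has the shortest line for intensity, from 15847 to 16698.

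On the log2 scale the mean signal of miR-21 was 12.95 ± 0.78 in the normal group and 13.68 ± 0.53 in the fibrotic group (SD, n = 5 each). The log2 fold change was 0.73 with a standard error of 0.25 and a 95% interval from 0.10 to 1.35, or a fold of 1.66 with an interval from 1.07 to 2.55 (limma, sheep as a block). Its unadjusted p was 0.0296 and its adjusted p 0.411 over all miRNA probes (limma, Benjamini-Hochberg), so miR-21 did not pass an adjusted p of 0.05. The exact sign-flip permutation test over the 5 sheep gave p = 0.0625, two-sided, which is the smallest p that 5 sheep allow.

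The background to this value was as follows. Limma called 0 miRNAs at an adjusted p under 0.05, or 0%, and the smallest adjusted p was 0.411, which miR-21 shared with other miRNAs. At an unadjusted p under 0.05 there were 18 miRNAs (11.8%), of which 10 were higher in the fibrotic segments (6.58%), and miR-21 was at place 7 by p. Higher values in the fibrotic segment of every animal were found for 13 miRNAs (8.55%), miR-21 included, and lower values in every animal for 8 (5.26%). All fibrotic segments lay above all normal ones for 2 miRNAs (1.32%), namely miR-199a-3p and miR-200b, and not for miR-21.

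Among the 59 miRNAs whose mean log2 signal reached 5, which are called the brighter miRNAs here, miR-21 had the highest log2 fold change, while the median was -0.07. Close behind its 0.73 (standard error 0.25) were miR-432 at 0.68, miR-200a at 0.67 and miR-379-5p at 0.64, so first place does not set miR-21 apart. Downward, miR-30a-3p at -0.88 and miR-133 at -0.86 differed more in size. Among all miRNAs miR-21 was at place 17, behind dimmer probes. Its place in single animals varied widely. Ordered by change among all miRNAs, miR-21 was at place 2 for sheep 2, 15 for sheep 3, 34 for sheep 7, 40 for sheep 10 and 87 for sheep 6. Within the brighter miRNAs those places were 2, 6, 7, 13 and 28. The change of miR-21 was thus above that of 42.8% of all miRNAs in sheep 6, 73.7% in sheep 10 and 77.6% in sheep 7. It was above that of 90.1% in sheep 3 and 98.7% in sheep 2.

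A rank within an array does not depend on how arrays are scaled to one another. A share of the signal is unchanged where a whole array is multiplied by 1 factor. It can change under a scaling that depends on intensity, such as quantile normalization, and the share was not run under one. Of the summed miRNA intensity, miR-21 took 4.28% (normal) and 12.4% (fibrotic) for sheep 2. For sheep 3 it took 3.18% and 5.08%, and for sheep 6 it took 10.8% and 11.7%. For sheep 7 it took 4.20% and 8.33%, and for sheep 10 it took 8.52% and 10.9%. The share was higher in the fibrotic segment of every animal, and the ranges of the groups overlapped as they did for intensity. The mean difference was 3.48 ± 2.83 percentage points (SD, n = 5; exact sign-flip permutation test, two-sided, p = 0.0625), from 0.896 for sheep 6 to 8.09 for sheep 2. With control probes counted in the total it was 1.5 percentage points, so its size depends on the total.

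The other 151 miRNAs together had less intensity in the fibrotic segment of every animal. Their summed difference, fibrotic minus normal, ran from -7689 (sheep 10) to -1820 (sheep 3), while that of miR-21 ran from 851 (sheep 6) to 11797 (sheep 2). For sheep 2 the others differed by -7566, less than the gain of miR-21, and for sheep 6 they differed by -4767, more than its gain. With miRNA sums nearly alike on every array, more signal of a bright miRNA and less signal of the others cannot be told apart.

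By brightness miR-21 was at rank 1 in the fibrotic segments of sheep 2, 6 and 10, at rank 3 for sheep 7 and at rank 4 for sheep 3. Its ranks in the normal segments were 2 for sheep 10, 3 for sheep 6, 5 for sheep 2, 8 for sheep 7 and 12 for sheep 3. Every animal had the rank nearer 1 in its fibrotic segment, with a mean difference of -4 ± 2.74 (SD, n = 5; exact sign-flip permutation test, two-sided, p = 0.0625). On all 10 arrays miR-26a was the brightest of the other miRNAs.

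If the left segment is taken as the bleomycin-infused one in every animal, the signs of sheep 6, 7 and 10 turn. The log2 fold change of miR-21 was then 0.18 with a 95% interval from -0.81 to 1.17 (limma, adjusted p = 0.931). The mean difference in share was 0.518 percentage points and that in rank -0.8 (exact sign-flip permutation tests, p = 0.875 and p = 0.8125). Left minus right, the log2 differences were 1.57 and 0.69 where the labels place fibrosis on the left (sheep 2 and 3), and -0.08, -1.0 and -0.31 where they place it on the right (sheep 6, 7 and 10). All 5 signs followed the label, which restates that miR-21 was higher in each segment labelled Fibrosis. It does not tell which coding is right. Of all miRNAs, 8.55% were higher and 5.26% lower in the labelled segment of every animal.

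In mean log2 signal over the 10 arrays miR-21 was at place 2 with 13.31, between miR-26a with 14.0 and miR-143 with 13.23. Probes differ in how well they bind, so this order is one of brightness and not of abundance. miR-26a, known to restrain fibroblast activation, was dimmer than miR-21 on 3 arrays, all from fibrotic segments. On the same array miR-21 differed from miR-26a by -0.68 ± 0.71 on the log2 scale (SD, 10 arrays, both groups together), and miR-26a was the brighter one on all 5 normal arrays. miR-143, a miRNA of smooth muscle, differed by 0.09 ± 0.53, and miR-21 was the brighter one on 6 arrays. The next were miR-16b, of a family that restrains the cell cycle, and let-7f, of a family tied to differentiation. miR-21 exceeded each of them on 7 arrays, with differences of 0.53 ± 0.73 for miR-16b and 0.71 ± 0.87 for let-7f (SD, 10 arrays). Each of these mean differences was smaller than its SD, which holds the difference between the groups as well.

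miR-21 varied more than other bright probes. Its log2 signal had an SD of 0.73 over the 10 arrays, the largest among the 20 miRNAs with the highest mean signal, whose median SD was 0.40 and whose lowest was the 0.13 of miR-16b. The paired changes of miR-21 had an SD of 0.59 between animals, again the largest of those 20, with a median of 0.24. Animals also differed in level, and the mean over both segments ran from 12.47 for sheep 3 to 13.99 for sheep 6, with an SD of 0.59. Among all brighter miRNAs the SD of miR-21 over the arrays was at place 12 of 59, so dimmer probes within that set varied more.

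Control probes moved with miR-21. They are described by name, since the sources used here do not say what each of them detects. The mean log2 signal of the 11 control probes with names ending in 3P had a Pearson r of 0.77 and a Spearman rho of 0.75 with miR-21 over the 10 arrays. Their median r with the brighter miRNAs was 0.10, and miR-21 was at place 11 of 59. The 5 probes named PUC2PM had an r of 0.86 (rho 0.72) and the 12 probes for 5S ribosomal RNA an r of 0.82 (rho 0.82). The 22 probes with 3M in their names had an r of 0.13 (rho 0.16) and the 5 named PUC2MM an r of 0.28 (rho 0.36). The probe sets named 3P, 5S and PUC2PM were the ones that followed miR-21. These and the following correlations describe 10 arrays that share 5 animals and their array brightness, and no p is given for them.

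Within animals, the log2 change of the 3P control probes was 0.58 for sheep 2, -0.02 for sheep 3, -0.72 for sheep 6, 1.04 for sheep 7 and -0.94 for sheep 10. The log2 change of miR-21 was 1.57 for sheep 2, 0.69 for sheep 3, 0.08 for sheep 6, 1.0 for sheep 7 and 0.31 for sheep 10. Both animals with the smallest change of miR-21, sheep 6 and 10, had dimmer 3P control probes in the fibrotic segment, and the mean change of these probes over the 5 animals was -0.01. Centred on them, an alternative chosen after seeing the data, the log2 fold change of miR-21 was 0.74 with a 95% interval from -0.19 to 1.67 (limma, adjusted p = 0.956). Centred on all control probes it was 1.14 with an interval from -0.08 to 2.36 (limma, adjusted p = 0.534), and the median of all miRNAs was 0.39 in place of -0.02. The part of array brightness in the change of miR-21 was not tested.

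**Figure D2:**
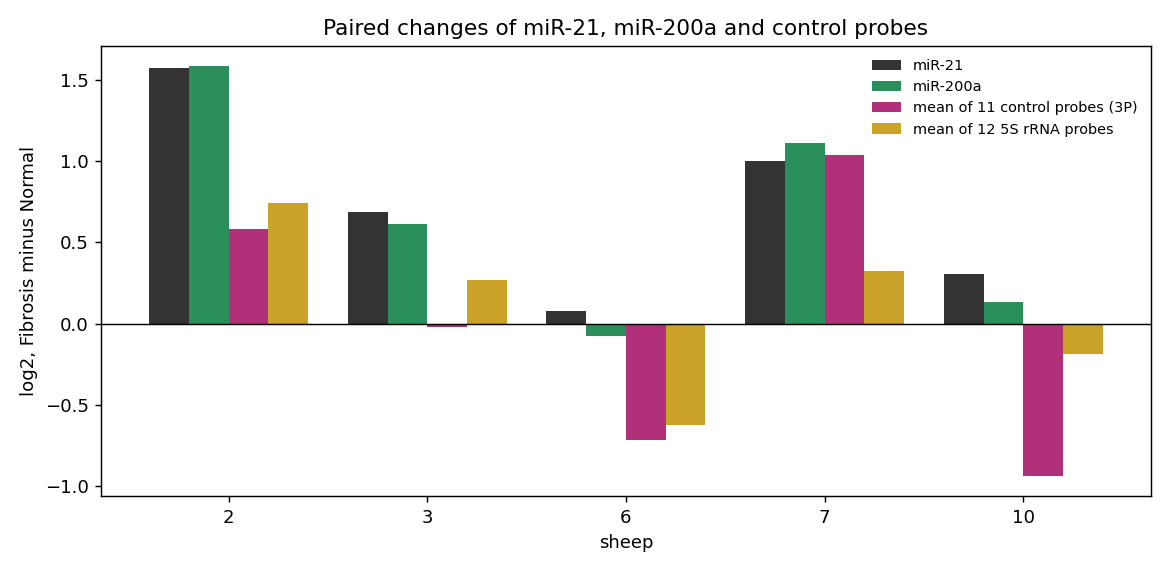
Fibrotic minus normal log2 signal in each sheep for miR-21 (black), miR-200a (green), the mean of the 11 control probes ending in 3P (magenta) and the mean of the 12 probes for 5S ribosomal RNA (yellow); each bar is 1 difference between 2 arrays, with no error bar. miR-21 and miR-200a lie close together in each sheep, and both sets of control probes are below 0 in sheep 6 and 10.

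The miRNA most like miR-21 was miR-200a, a miRNA of epithelial cells that represses ZEB1 and ZEB2, drivers of epithelial to mesenchymal transition. Sheep 2 went from a miR-200a intensity of 867 (normal) to 2593 (fibrotic), and sheep 3 from 689 to 1052. Sheep 6 went from 2088 to 1979, sheep 7 from 740.3 to 1598, and sheep 10 from 1742 to 1910. As for miR-21, the normal segments were high in sheep 6 and 10 and low in the others. Over the 10 arrays the log2 signals of both miRNAs had a Pearson r of 0.99 and a Spearman rho of 0.99. Of the 1711 pairs among the brighter miRNAs none had a higher r, and the median of the highest r that each miRNA reached was 0.90. A step of 1 in the log2 signal of miR-21 went with a step of 0.92 in that of miR-200a.

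Over the paired changes of the 5 animals miR-200a was also first, with an r of 0.99. Its own log2 changes were 1.58 for sheep 2, 0.61 for sheep 3, -0.08 for sheep 6, 1.11 for sheep 7 and 0.13 for sheep 10, and its log2 fold change was 0.67 with a standard error of 0.28 (limma, adjusted p = 0.428). The likeness was as high without the difference between groups, with an r of 0.98 after the group means were subtracted, 0.99 over the normal and 0.97 over the fibrotic segments. Without the 2 arrays farthest from the median of miR-21, the normal segments of sheep 3 and 7, it was 0.98. With quantile normalization r was 0.88 and with arrays centred on the 3P control probes 0.97, and miR-200a was first under each of these. Probe sequences were not used here, and a part of similar probes in this likeness was not tested.

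**Figure D3:**
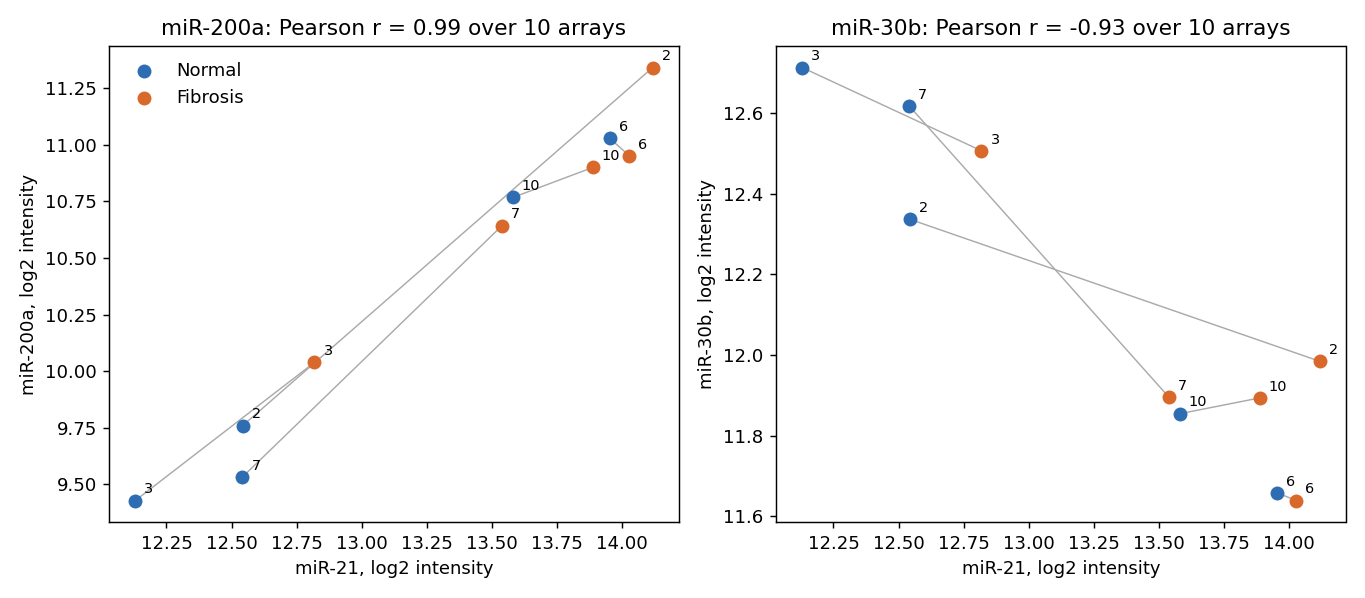
Log2 intensity of miR-200a (left) and miR-30b (right) against that of miR-21 on the 10 arrays, with normal segments in blue, fibrotic segments in orange, sheep numbers beside the points and grey lines joining both segments of a sheep. miR-200a goes up with miR-21 in both groups (r = 0.99), and miR-30b goes down with it (r = -0.93).

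Next in likeness over the 10 arrays were miR-379-5p (r = 0.89, rho = 0.82), miR-106b (r = 0.89, rho = 0.85), miR-432 (r = 0.87, rho = 0.87) and miR-19b (r = 0.83, rho = 0.78). miR-379-5p and miR-432 were dim, with median intensities of 106 and 40.6. Sheep 2 went from a miR-379-5p intensity of 83.8 to 110, sheep 3 from 35.1 to 74.8, sheep 6 from 178 to 179, sheep 7 from 44.4 to 123, and sheep 10 from 102 to 117. It was higher in the fibrotic segment of every animal, like miR-21, but over the paired changes its r with miR-21 was 0.40. By paired changes the closest after miR-200a were miR-200b (r = 0.99), miR-26a (r = 0.87), miR-106b (r = 0.86) and miR-495-3p (r = 0.85). They are the highest of 58 values, each over 5 points, and the share of all pairs with such an r was not computed. Over the 10 arrays the r of miR-26a was 0.25. miR-26a was lower in the fibrotic segment of each animal, from -0.05 for sheep 2, where miR-21 differed most, to -0.38 for sheep 10.

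At the other end stood miR-30b (r = -0.93, rho = -0.79), miR-25 (r = -0.89, rho = -0.68), miR-30c (r = -0.88, rho = -0.83), miR-99a (r = -0.87, rho = -0.81) and miR-30a-3p (r = -0.86, rho = -0.84). Of the 5 miR-30 probes among the brighter miRNAs, miR-30b, miR-30c and miR-30a-3p were in this group and miR-30d had an r of -0.84, while miR-30a-5p, the other arm of miR-30a, had an r of 0.10. Sheep 2 went from a miR-30b intensity of 5174 (normal) to 4053 (fibrotic), sheep 3 from 6714 to 5820, and sheep 6 from 3234 to 3190. Sheep 7 went from 6284 to 3810, and sheep 10 from 3704 to 3805. miR-30b was thus high in the normal segments of sheep 2, 3 and 7, where miR-21 was low. By paired changes the lowest were miR-26b (r = -0.96), miR-10b (r = -0.93), let-7b (r = -0.93), let-7c (r = -0.93) and miR-10a (r = -0.91). These are likewise extremes of 58 values over 5 points each.

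Over the 58 other brighter miRNAs the median r with miR-21 was 0.09, with 31 above and 27 below 0. An r of at least 0.8 was reached by 7 of them and one of -0.8 or lower by 8, while 6.37% and 5.49% of all 1711 pairs lay past these limits. The r of miR-30b was -0.77 with quantile normalization, -0.63 centred on the median miRNA, -0.84 on the 75th percentile and -0.93 on the summed intensity, but 0.07 centred on all control probes. Centred on the 3P control probes, all 58 miRNAs had an r above 0, the 5 lowest between 0.18 and 0.31 and the 5 highest between 0.60 and 0.97. Such centring subtracts 1 value from every miRNA of an array and so adds a shared term to all of them.

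**Figure D4:**
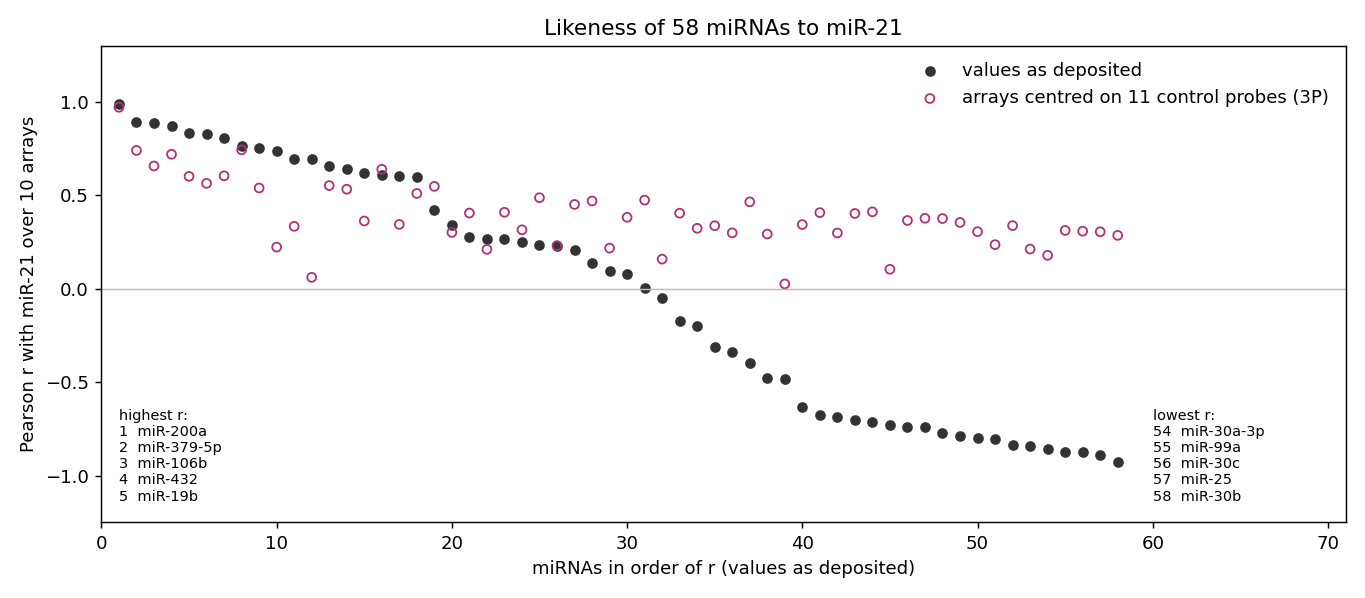
Pearson r with miR-21 over the 10 arrays for the 58 other miRNAs whose mean log2 signal reached 5, ordered by r on the deposited values (filled points), with the r after centring arrays on the 11 control probes ending in 3P as open circles; the names of the 5 highest and 5 lowest are listed by place. The filled points run from 0.99 to -0.93, and all open circles are above 0.

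Of 8 further miRNAs known to act for fibrosis or to be raised in it, 5 were on the array, 2 higher and 3 lower on average. Their median log2 fold change was -0.02, as was that of all miRNAs (70 higher, 81 lower), and none passed an adjusted p of 0.05 (limma). The median of the 5 was -0.36 without sheep 10 and 0.39 with arrays centred on all control probes. miR-199a-3p, a miRNA of mesenchymal cells and the bright member, had a log2 fold change of 0.49 with a standard error of 0.17 (limma, adjusted p = 0.411). It was higher in 5 of 5 sheep, as were 8.55% of all miRNAs. The study also lists it from these samples, so its direction is not independent evidence. Its r with miR-21 was 0.61 over the arrays and -0.02 over the paired changes. The 4 miR-154 probes were dim, and their log2 fold changes ran from -0.58 for miR-154a-5p to 0.05 for miR-154a-3p.

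Of 11 miRNAs known to act against fibrosis or to be lowered in it, 10 were on the array, 5 higher and 5 lower on average, and none passed an adjusted p of 0.05 (limma). Their median log2 fold change was 0.0012, and 0.41 with arrays centred on all control probes, a step that moved the median of all miRNAs to 0.39. The study lists most of them from these samples, so their direction is not independent evidence. Lower in all 5 sheep were miR-29a, a repressor of collagen genes, at -0.19, miR-26a at -0.22 and miR-30a-5p at -0.25. The miR-200 family stood at 0.67 (miR-200a), 0.58 (miR-200b) and 0.36 (miR-200c), and miR-200b was higher in all 5 sheep. Of all miRNAs, 5.26% were lower and 8.55% higher in every animal. Over the arrays the r with miR-21 was 0.60 for miR-29a, 0.81 for miR-29b, 0.10 for miR-30a-5p and -0.74 for let-7d, a repressor of HMGA2. miR-29a thus went along with miR-21 over the arrays and was lower in every fibrotic segment.

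Cell type markers differed in their r with miR-21 over the arrays. It ran from 0.60 (miR-200c) to 0.99 (miR-200a) for those of epithelium, smooth muscle and mesenchyme. It was -0.48 for miR-133 and -0.73 for miR-150. For epithelium 3 of 3 were present, and the sum of miR-200a, miR-200b and miR-200c was 2400 to 4319 in normal against 3496 to 6712 in fibrotic segments. For smooth muscle and mesenchyme 2 of 3 were present, miR-143 and miR-199a-3p, with sums of 5564 to 20054 and 8483 to 16264. Most of this sum was miR-143, with means of 10358 (normal) and 10201 (fibrotic), against 1534 and 2136 for miR-199a-3p. miR-143 was higher in the fibrotic segment of 3 sheep and miR-199a-3p in that of 5. The ranges of the epithelial and of the mesenchymal sum overlapped between the groups, and the highest epithelial sum was that of a fibrotic segment. Striated muscle had 1 of 3, miR-133, at 35.2 to 162 in normal and 23.5 to 49.3 in fibrotic segments. Lymphocytes had 1 of 2, miR-150, at 445 to 2107 and 309 to 1985. Over the paired changes the r of miR-150 with miR-21 was 0.09, unlike that over the arrays. No red blood cell or endothelial marker of the lists was on the array. The part of cell composition in the change of miR-21 was not tested.

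miR-103 was the reference miRNA of the study's PCR and is also in the study's list of miRNAs raised on the array. Its log2 changes were 0.34 for sheep 2, 0.08 for sheep 3, 0.11 for sheep 6, 0.05 for sheep 7 and -0.12 for sheep 10. These were smaller than those of miR-21 except for sheep 6. Under all 18 other settings fitted, miR-21 had a log2 fold change above 0 and above the median of the miRNAs tested. Much of this was fixed in advance. The higher floor, the filter of dim miRNAs and the block could not move the estimate. Centring each array on 1 value shifts miR-21 and the median alike. With every paired change above 0, leaving out a sheep could not turn the sign. Centring each array on its median miRNA gave 0.57 for miR-21 and moved the median of all miRNAs to -0.18. The unadjusted limma p of miR-21 was under 0.05 in 10 of these 18 settings and not in 8, and its adjusted p ran from 0.197 to 0.956. Without sheep 2 the log2 fold change was 0.52 with a 95% interval from -0.04 to 1.07, and without sheep 6 it was 0.89 with an interval from 0.22 to 1.56.

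**Figure D5:**
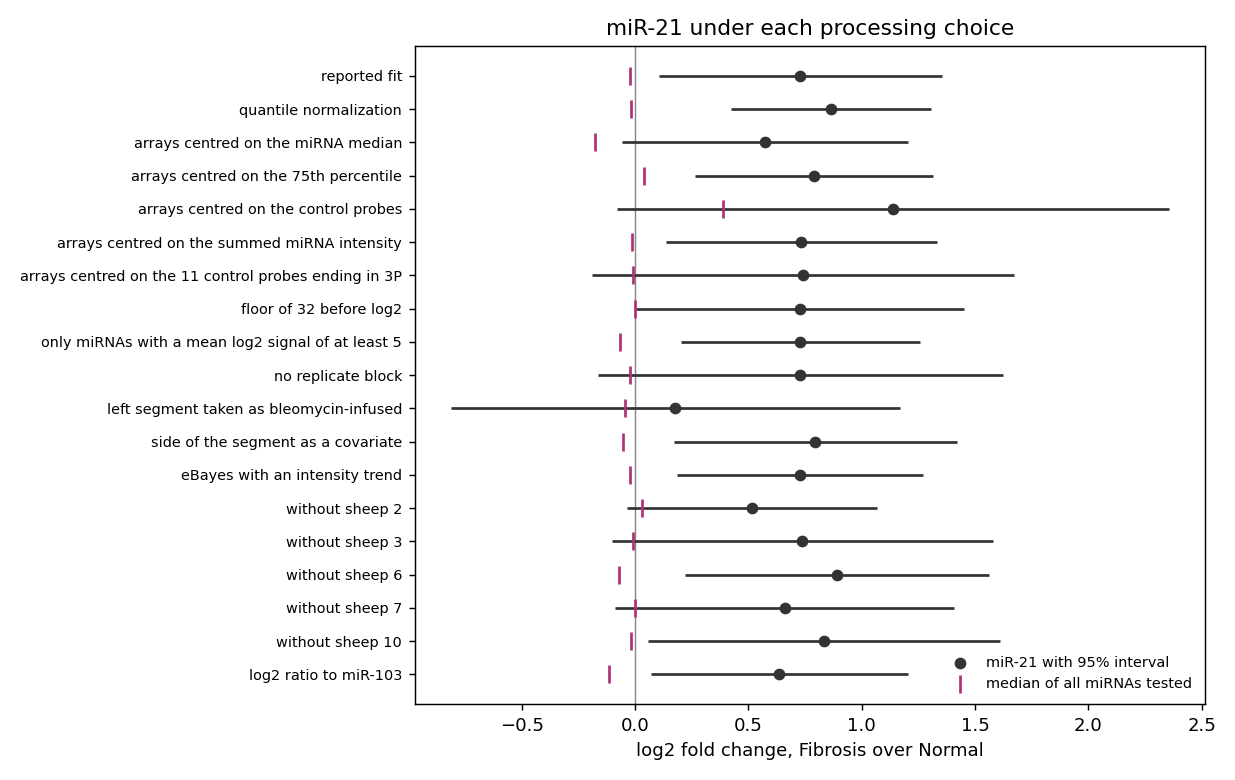
Log2 fold change of miR-21, fibrotic over normal, with its 95% limma interval (black) and the median log2 fold change of all miRNAs tested (magenta tick) as reported and under 18 other settings. Every estimate is above 0 and above the median, which several of the settings could not change. The lowest is 0.18 with the left segment taken as the bleomycin-infused one, and the highest 1.14 with arrays centred on the control probes.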

How the data were processed

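Per the methods each value is the mean of 21 spots after background correction. The authors deposited these as intensity on a linear scale, although the methods speak of log2 values. Other steps between arrays are not given in the sources used here, and a scaling that fixes the miRNA sum would tie more miR-21 to less of the rest. Intensities below 1 were raised to 1, and log2 values were fitted over all miRNA probes with limma 3.58.1 in R 4.3.3 (sheep as a block, Benjamini-Hochberg adjustment), a step tested on simulated data. With a simulated log2 change of 0.75, miR-21 was called in 10% of 50 runs and 21.1% of the changed miRNAs were recovered. A missing call therefore does not show that a miRNA was unchanged. Pairs are segments of 1 animal. Over miRNAs their deviations from group means had an r of 0.34 for sheep 2, 0.90 for sheep 3, 0.40 for sheep 6, -0.67 for sheep 7 and 0.56 for sheep 10. Single values were tested by exact sign-flip permutation. Named miRNAs were the 5 highest and 5 lowest in Pearson r with miR-21 over arrays and over paired changes (mean log2 signal of 5 or more), up to 3 neighbours each side in level, miR-103 and members of the lists. miR-21 and the lists were chosen with earlier results of these data known. Alternatives were other scalings, floors, filters, blocks and codings, and leaving out each sheep.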

Additional observations from a re-analysis of the deposited data

How the results depend on the processing

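The log2 fold change, share and rank of miR-21 kept their direction under every alternative run, and the log2 fold change did not pass an adjusted p of 0.05 under any. Several alternatives could not turn the direction. Every sheep had the same sign in all 3 measures, so leaving out a sheep could not, and floors, filters and blocks left the estimate as it was. For share and rank the exact permutation test could not go below 0.05 with these animals, so its p says nothing about stability. With 1 sheep left out the change ran from 0.52 to 0.89, the share from 2.33 to 4.13 percentage points and the rank from -4.75 to -3. With no replicate block the log2 fold change of miR-21 was 0.73, with an adjusted p of 0.716 (limma), and the pairing changed no call. A t-test over sheep, paired and unpaired, gave miR-21 an adjusted p of 0.528 and 0.735. It is not the methods' test, which was run within each sheep at a stricter threshold. The number of called miRNAs was 0, and 1 with arrays centred on all control probes, miR-539-3p, named after its value was seen. The 18 miRNAs at an unadjusted p under 0.05 became 6 centred on the 3P control probes, 7 with a floor of 32, 9 without dim miRNAs, 8 with no replicate block, 3 with the left segment taken as bleomycin side, and 9 and 6 with the t-test over sheep, paired and unpaired. With 1 sheep left out they ran from 6 (without sheep 3) to 26 (without sheep 6), with 8 without sheep 2 and 10 without sheep 7 or sheep 10. Of the 5 miRNAs most like miR-21, 3 were shared with quantile normalization, 3 after subtracting group means, and 3 to 5 with 1 sheep left out, the lowest without sheep 6. The median of the list acting against fibrosis was 0.41 centred on all control probes. With the left coding that median was 0.03, the median of the list acting for fibrosis was -0.10, and miR-21 was at place 32 by change. Likeness over paired changes was not computed under that coding. The causes were not tested. The rank after quantile normalization was not run, since it cannot change. The probe of miR-21 was among the 12 brightest miRNAs on every array, and the comparison rests on 5 pairs.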
